A study of Homo sapiens with 13 samples.

Results

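Divergent promoter pairs were examined in MDA-MB-231 cells, a line derived from a triple negative, basal B breast cancer. A pair was defined as the transcription start sites (TSSs) of 2 protein-coding genes on opposite strands, the minus-strand TSS to the left, at most 1000 bp apart. With 1 canonical TSS per gene, 974 pairs were found among 19881 protein-coding TSSs. They held 1877 genes, or 9.44% of all, and the other 18004 TSSs are called single promoters here. The members were thus chosen by position alone, and no measured value entered the choice. Chromatin immunoprecipitation and sequencing had been carried out on cells in standard culture for 6 targets. H3K4me3, H3K27ac, H3K4me1, CTCF and Pol II each had 2 replicates, and the p300/CBP immunoprecipitations were pooled into 1 library. The replicates were merged before peaks were called, so each of the 6 antibodies gave a single list of peak positions without heights, and no value below has a replicate error. Peaks were counted in the region from 1500 bp left of the first TSS to 1500 bp right of the other, and in the 3 kb centred on the TSS of a single promoter.

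A divergent promoter is a stretch of DNA from which neighbouring genes are transcribed away from each other. Such promoters are usually rich in CpG dinucleotides and share a nucleosome-depleted stretch in which factors for both genes can bind. H3K4me3 marks nucleosomes around active or poised start sites, and H3K27ac marks active promoters and enhancers. H3K4me1 is abundant at enhancers and on the outer flanks of promoters. Pol II is the polymerase that transcribes protein-coding genes, CTCF is an insulator and architectural protein, and p300 and CBP are acetyltransferases found mainly at enhancers. Head-to-head arrangement is known for many housekeeping genes, among them genes for DNA repair and for mitochondrial proteins, and for the type IV collagens and the histones.

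The TSSs of a pair lay 11 to 1000 bp apart, with a median of 234 bp and quartiles of 122 and 400.25 bp. At most 100 bp separated 186 pairs, and at most 300 bp separated 617 pairs (63.3%). The regions were therefore 3011 to 4000 bp wide, with a median of 3234 bp. There were 70 genes that occurred in more than 1 pair, and 137 pairs shared a gene with another pair. The share of protein-coding genes that belonged to a pair was highest on chromosome 14 (13.8%) and chromosome 16 (12.8%), was 6.06% on chromosome X, and was 0 of 62 genes on chromosome Y. The identity of the cells was checked on markers. All 8 mesenchymal, basal B markers, such as VIM and AXL, held H3K27ac at their promoter, as did 4 of 10 luminal or epithelial markers (KRT8, KRT18, ERBB3 and FOXA1), whereas ESR1, PGR, GATA3, EPCAM, ESRP1 and CDH1 held none.

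The letters between the TSSs are shown for 6 textbook pairs at most 300 bp apart, where this stretch is short. SURF1 assembles cytochrome c oxidase. COL4A1 and COL4A2 encode chains of the main basement membrane collagen. RARS2 and SARS2 are mitochondrial tRNA synthetases, ORC3 belongs to the origin recognition complex and MRPS12 to the mitochondrial ribosome. NTHL1 is a DNA glycosylase, TSC2 restrains growth signalling, CHEK2 is a checkpoint kinase and HSCB helps to build iron-sulphur clusters. Sequences were read from GRCh37, plus strand, with the minus-strand gene leaving to the left. Capitals mark matches, on either strand, to the 10 motifs searched.
SURF1/SURF2, chr9:136223364-136223425: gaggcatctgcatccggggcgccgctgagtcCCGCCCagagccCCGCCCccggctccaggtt
COL4A1/COL4A2, chr13:110959505-110959630: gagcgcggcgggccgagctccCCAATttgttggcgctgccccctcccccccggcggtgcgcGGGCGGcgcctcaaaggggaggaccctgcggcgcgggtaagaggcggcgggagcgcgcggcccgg
RARS2/ORC3, chr6:88299706-88299852: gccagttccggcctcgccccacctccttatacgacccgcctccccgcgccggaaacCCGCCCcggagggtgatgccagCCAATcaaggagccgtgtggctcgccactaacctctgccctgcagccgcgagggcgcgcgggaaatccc
NTHL1/TSC2, chr16:2097836-2097985: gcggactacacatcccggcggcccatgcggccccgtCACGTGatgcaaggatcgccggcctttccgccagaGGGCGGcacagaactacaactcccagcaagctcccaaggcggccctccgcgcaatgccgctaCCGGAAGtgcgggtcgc
SARS2/MRPS12, chr19:39421404-39421583: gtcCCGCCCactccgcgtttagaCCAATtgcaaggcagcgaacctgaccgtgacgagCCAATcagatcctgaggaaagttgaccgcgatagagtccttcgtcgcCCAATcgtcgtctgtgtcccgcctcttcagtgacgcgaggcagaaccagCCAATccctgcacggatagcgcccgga
CHEK2/HSCB, chr22:29137809-29138026: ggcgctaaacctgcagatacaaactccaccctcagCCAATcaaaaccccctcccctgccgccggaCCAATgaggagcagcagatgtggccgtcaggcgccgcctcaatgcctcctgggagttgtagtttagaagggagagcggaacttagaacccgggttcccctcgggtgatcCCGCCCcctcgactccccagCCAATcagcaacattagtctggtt
These stretches were 62 to 218 bases long and held 6 to 20 CpG dinucleotides each, with a GC content from 59.6% in CHEK2/HSCB to 80.2% in COL4A1/COL4A2. The box CCAAT, which NF-Y binds, occurred 4 times between SARS2 and MRPS12 and 3 times between CHEK2 and HSCB. The GC box GGGCGG, read by SP and KLF factors, occurred in all 6. The E-box CACGTG and the ETS core CCGGAAG occurred in NTHL1/TSC2 only. No TATA box (TATAAA) was found in any of the 6.

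Nearly all divergent pairs carried the marks of an active promoter. H3K4me3 was present at 939 of 974 pairs, or 96.4% (95% Wilson interval 95.04 to 97.41%), against 62.7% of all protein-coding TSS windows. H3K27ac was present at 934 pairs (95.9%), against 61.5% of all windows, and Pol II at 928 pairs (95.3%), against 58.4%. H3K4me1 was present at 869 pairs (89.2%), against 59.4%. CTCF was found at 199 pairs (20.4%), against 17.6% of all windows. p300/CBP was found at 2 pairs (0.205%), against 0.704%. H3K4me3, H3K27ac and Pol II occurred together at 925 pairs. The most frequent combination, H3K4me3, H3K27ac, H3K4me1 and Pol II, was seen at 671 pairs (68.9%). The same combination with CTCF was seen at 179 pairs (18.4%), and without H3K4me1 or CTCF at 59 pairs (6.06%). No pair had peaks of all 6 lists.

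Single promoters held these marks less often. A region of a pair counted as marked if a peak lay at either of its TSSs, whereas that of a single promoter is centred on 1 TSS. The differences were not adjusted for this. The difference, pairs minus single promoters, was 37.2 percentage points for H3K4me3 (95% Newcombe interval 35.6 to 38.4), 38.0 for H3K27ac (36.4 to 39.3), 32.6 for H3K4me1 (30.4 to 34.5) and 40.7 for Pol II (39.1 to 42.1). Each of these intervals lay above 0. They cover counting error only, since regions of 1 merged experiment are not replicates. Base composition moved with the class: 93.8% of pairs but 63.8% of single promoters had a CpG observed/expected ratio of 0.6 or more in the central 1 kb. Within 16 strata of CpG ratio and GC content the differences were 18.1 points for H3K4me3 (16.8 to 19.3), 20.3 for H3K27ac (18.9 to 21.7), 21.9 for H3K4me1 (19.8 to 24.0) and 23.2 for Pol II (21.7 to 24.6). Among regions with a ratio of 0.6 or more, 884 of 914 pairs (96.7%) and 8548 of 11494 single promoters (74.4%) held Pol II. For CTCF the difference was 3.09 points (0.613 to 5.79), but it was -0.811 (-3.44 to 1.82) within the strata and -4.20 (-6.82 to -1.36) among regions that held H3K27ac. For p300/CBP it was -0.550 points (-0.753 to 0.00259), an interval that includes 0.

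**Figure D1:**
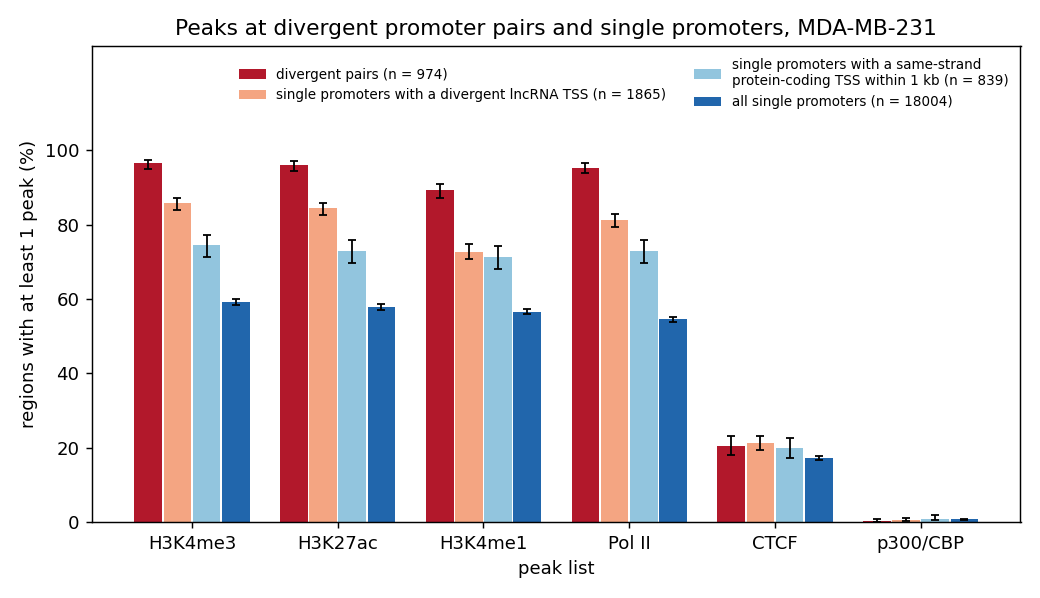
Share of regions (%) with at least 1 peak of each of the 6 lists, for the 974 divergent pairs and 3 sets of single promoters; bars are shares and error bars 95% Wilson intervals. For H3K4me3, H3K27ac, H3K4me1 and Pol II the pairs are highest (89.2 to 96.4%), followed by single promoters with a divergent lncRNA TSS, whereas the CTCF bars lie close together and the p300/CBP bars are near 0.

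The pairs were also set against single promoters with another TSS nearby. A lncRNA is a long RNA that codes for no protein, and 1865 single promoters had a lncRNA TSS on the other strand within 1000 bp upstream. H3K4me3 was present at 85.7% of these and Pol II at 81.2%. The pairs exceeded them by 10.7 points for H3K4me3 (8.68 to 12.7), 11.6 for H3K27ac (9.42 to 13.6), 16.5 for H3K4me1 (13.6 to 19.3) and 14.1 for Pol II (11.8 to 16.3). The share with CTCF was 21.2% there, and the difference of -0.802 points had an interval that includes 0 (-3.88 to 2.40). Another 839 single promoters had a protein-coding TSS on the same strand within 1000 bp. These tandem promoters held H3K4me3 at 74.4%, and the pairs exceeded them by 22.0 points for H3K4me3 (18.9 to 25.3) and by 22.5 points for Pol II (19.2 to 25.8). The tandem promoters were not matched to the pairs for CpG content or for region width.

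Among regions that held H3K27ac, the classes came closer. H3K4me3 accompanied it at 933 of 934 pairs (99.9%) and at 10142 of 10419 single promoters (97.3%), a difference of 2.55 points (1.98 to 2.89). Pol II was present at 99.1% of such pairs and 90.8% of such single promoters, a difference of 8.35 points (7.36 to 9.06). For H3K4me1 the shares were 91.97% and 84.80%, a difference of 7.17 points (5.14 to 8.90). p300/CBP was present at 2 such pairs (0.214%) and 117 such single promoters (1.12%), a difference of -0.909 points (-1.18 to -0.316).

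A single peak usually covered both start sites. This was the case at 855 of the 939 pairs with H3K4me3, or 91.1% (89.1 to 92.7%), at 827 of 934 with H3K27ac (88.5%, 86.3 to 90.4%) and at 841 of 928 with Pol II (90.6%, 88.6 to 92.3%). The authors' peak calling joined bins across gaps of up to 500 bp for H3K4me3 and H3K27ac and up to 800 bp for Pol II. Separate maxima at TSSs closer than this cannot be told apart from 1 maximum in these lists. H3K4me1 behaved in the opposite way. Although its gap limit was 1000 bp, 1 peak covered both TSSs at only 15 of 869 pairs (1.73%, 1.05 to 2.83%), and neither TSS was covered at 825 (94.9%). CTCF covered both TSSs with 1 peak at 11 of 199 pairs (5.53%).

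Taking each TSS of a marked region by itself, H3K4me3 covered 93.4% of the TSSs in pairs and 81.6% of single TSSs, a difference of 11.8 points (10.4 to 13.1). For H3K27ac the shares were 91.2% and 75.1%, a difference of 16.1 points (14.5 to 17.5). For Pol II they were 94.4% and 86.5%, a difference of 7.93 points (6.61 to 9.11). For H3K4me1 the order was the other way, with 3.39% of TSSs in pairs and 15.8% of single TSSs covered, a difference of -12.4 points (-13.5 to -11.2). The 2 TSSs of a pair lie in the same region, so these counts are not independent and the intervals are too narrow.

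H3K4me1 stood on both outer flanks of the pairs. Of the 869 pairs with H3K4me1, 575 (66.2%) had it on the side of each gene and not between or over the TSSs, 249 (28.7%) had it on 1 flank only, and 45 (5.18%) had it between or over the TSSs. The corresponding shares of the 10194 single promoters with H3K4me1 were 38.7%, 45.5% and 15.8%. The difference was 27.5 points for both flanks (24.1 to 30.7), -16.8 for 1 flank (-19.9 to -13.6) and -10.6 for a peak over the TSSs (-12.1 to -8.81). Restricted to regions with H3K27ac, the difference for both flanks was 23.1 points (19.7 to 26.3). A flank ended 1500 bp from the TSS, so H3K4me1 further out was not counted in either class. At FOXM1/RHNO1, counted with 1 flank, a peak on the other side lay from -3063 to -1613 bp of the midpoint. The shares with 1 flank and with no H3K4me1 thus depend on this limit. The stretch free of H3K4me1 between the flanking peaks had a median length of 2100 bp over 575 pairs, with quartiles of 1725 and 2400 bp. Its range, 1100 to 3500 bp, was bounded below by the joining of gaps in peak calling and above by the width of the region.

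The profile by position shows how the marks were laid out relative to a gene of the pair. It counts both TSSs of each pair, so its intervals are too narrow as well. At 1000 bp upstream of the TSS, which in a pair lies on or near the partner gene, H3K4me3 covered 88.2% of TSSs in marked pairs and 33.6% of marked single promoters, a difference of 54.7 points (52.9 to 56.3). At 1000 bp into the gene the shares were 77.4% and 76.3%, and the difference of 1.09 points had an interval that includes 0 (-1.01 to 3.10). At 2000 bp into the gene, H3K4me3 was less frequent in pairs (11.8%) than at single promoters (24.0%), a difference of -12.2 points (-13.8 to -10.4). H3K27ac differed likewise at this distance, with 11.13% and 22.98% (-11.8 points, -13.4 to -10.1). For H3K4me1 at 1000 bp into the gene the shares were 50.5% and 39.4%. Pol II covered 17.9% of TSSs in pairs and 23.7% of single TSSs at 1000 bp into the gene, a difference of -5.78 points (-7.66 to -3.79). At 2000 bp the Pol II shares were 12.6% and 13.7%, a difference of -1.19 points whose interval includes 0 (-2.78 to 0.533).

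**Figure D2:**
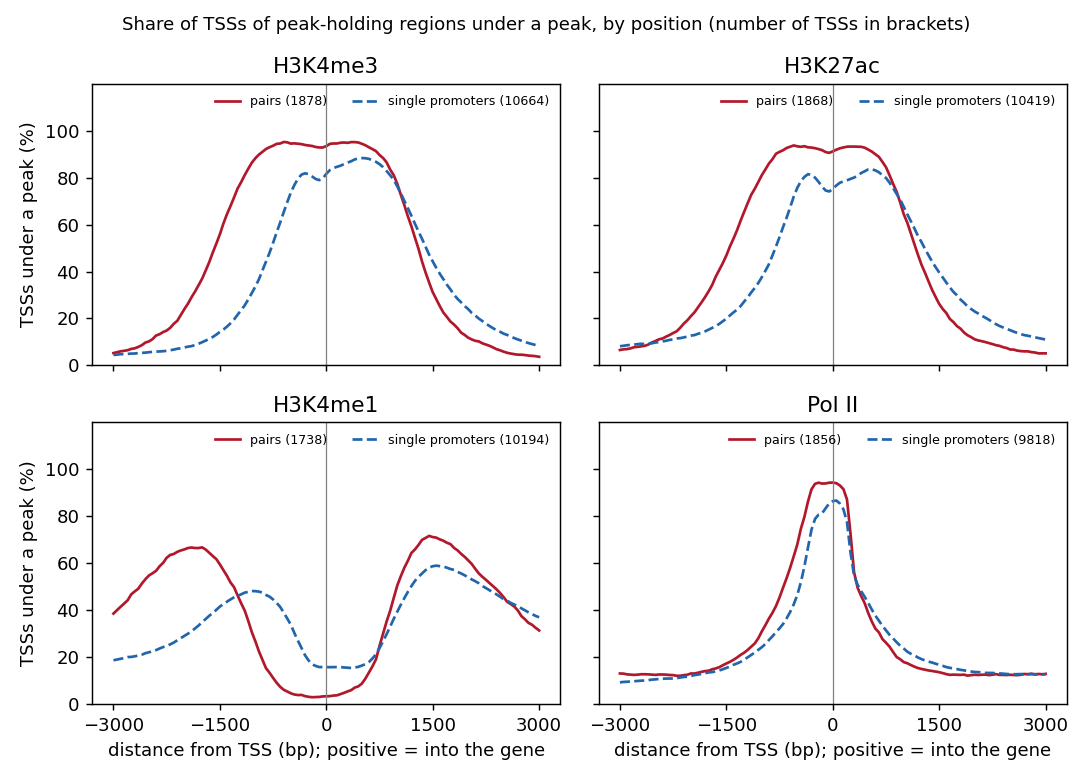
Share of TSSs (%) that lay under a peak at each 50-bp step from 3000 bp upstream to 3000 bp into the gene, for H3K4me3, H3K27ac, H3K4me1 and Pol II; only regions with a peak of that list are counted, solid lines are TSSs in divergent pairs and dashed lines single promoters. In pairs the H3K4me3 and H3K27ac plateau spans both sides and H3K4me1 has a deep trough over the TSS (3.39%) with a shoulder on either side, whereas at single promoters the plateau leans into the gene.

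Measured as length, H3K4me3 covered a median of 2700 bp of the region at pairs (quartiles 2300 and 3082) and 2000 bp at single promoters (1500 and 2403). The difference of 700 bp had an interval from 652 to 763. H3K27ac covered 2500 bp and 1933 bp, a difference of 567 bp (474 to 635). Pol II covered 1200 bp and 1050 bp, a difference of 150 bp (100 to 221). H3K4me3 filled the whole region at 113 of 939 pairs (12.03%) and 682 of 10664 single promoters (6.40%), although the regions of the pairs were wider. The difference was 5.64 points (3.65 to 7.92). For H3K27ac the shares were 8.78% and 8.33%, and the difference of 0.449 points had an interval that includes 0 (-1.29 to 2.50). Pol II filled the whole region at 27 pairs (2.91%), against 4.72% of single promoters. In a 3 kb window on the midpoint, as wide as that of the single promoters, the difference was 16.1 points for H3K4me3 (13.5 to 18.9) and 7.30 for H3K27ac (5.05 to 9.82), and for Pol II it was -1.16 with an interval that includes 0 (-2.26 to 0.298).

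The cover of the sides was compared within each pair, where a side is the 1500 bp from a TSS into its gene. Among pairs with a peak, both sides were touched at 96.8% for H3K4me3, 96.0% for H3K27ac, 91.3% for Pol II and 70.3% for H3K4me1. The covered lengths of the sides differed by a median of 235 bp for H3K4me3, 286 bp for H3K27ac, 255 bp for Pol II and 294 bp for H3K4me1. A difference over 1000 bp was found at 36 pairs for H3K4me3 (3.83%), 39 for H3K27ac (4.18%), 22 for H3K4me1 (2.53%) and 111 for Pol II (11.96%). In 44 pairs H3K4me3 covered only 1 of the TSSs, and in 68 pairs Pol II did. The most uneven pairs for H3K4me3 included VPS29/RAD9B, where the mark covered 1500 bp of VPS29, a subunit of the retromer, and 0 bp of RAD9B. At NOP10/NUTM1 it covered 1486 bp on the side of NOP10, a small nucleolar protein gene, and 0 bp of NUTM1, a gene expressed in testis. In both pairs, however, 1 H3K27ac peak and 1 Pol II peak covered both TSSs. H3K27ac and Pol II covered 365 bp and 115 bp on the RAD9B side, and 235 bp and 35 bp on the NUTM1 side. At S100A13/S100A1 H3K4me3 covered 1500 bp and 0 bp, and Pol II covered 1080 bp and 0 bp. For Pol II the most uneven pairs included COA3/CNTD1, with 1500 bp over COA3, a cytochrome c oxidase assembly factor, and 0 bp over CNTD1, a meiotic gene. H3K4me3 and H3K27ac each formed 1 peak over both of these TSSs, with 122 bp and 222 bp on the CNTD1 side. HSPA1L/HSPA1A held Pol II over 1500 bp of HSPA1L and 0 bp of HSPA1A, the inducible Hsp70 gene. HSPA1A has a nearly identical copy, HSPA1B, and the signal was made of uniquely mapped reads, so its peaks are uncertain.

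Textbook pairs were read in the same way. Of 30 pairs listed from general knowledge, 23 met the rule of distance. All 23 held H3K4me3 and H3K27ac and 22 held Pol II, close to the 96.4%, 95.9% and 95.3% of all pairs. A single peak covered both TSSs at 21 of the 23 for H3K4me3, at 19 for H3K27ac and at all 22 with Pol II. H3K4me1 was present at 21 and covered both TSSs at none, and 5 held CTCF. H3K4me3 covered 1650 to 3865 bp of these regions with a median of 3049 bp.

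**Figure D3:**
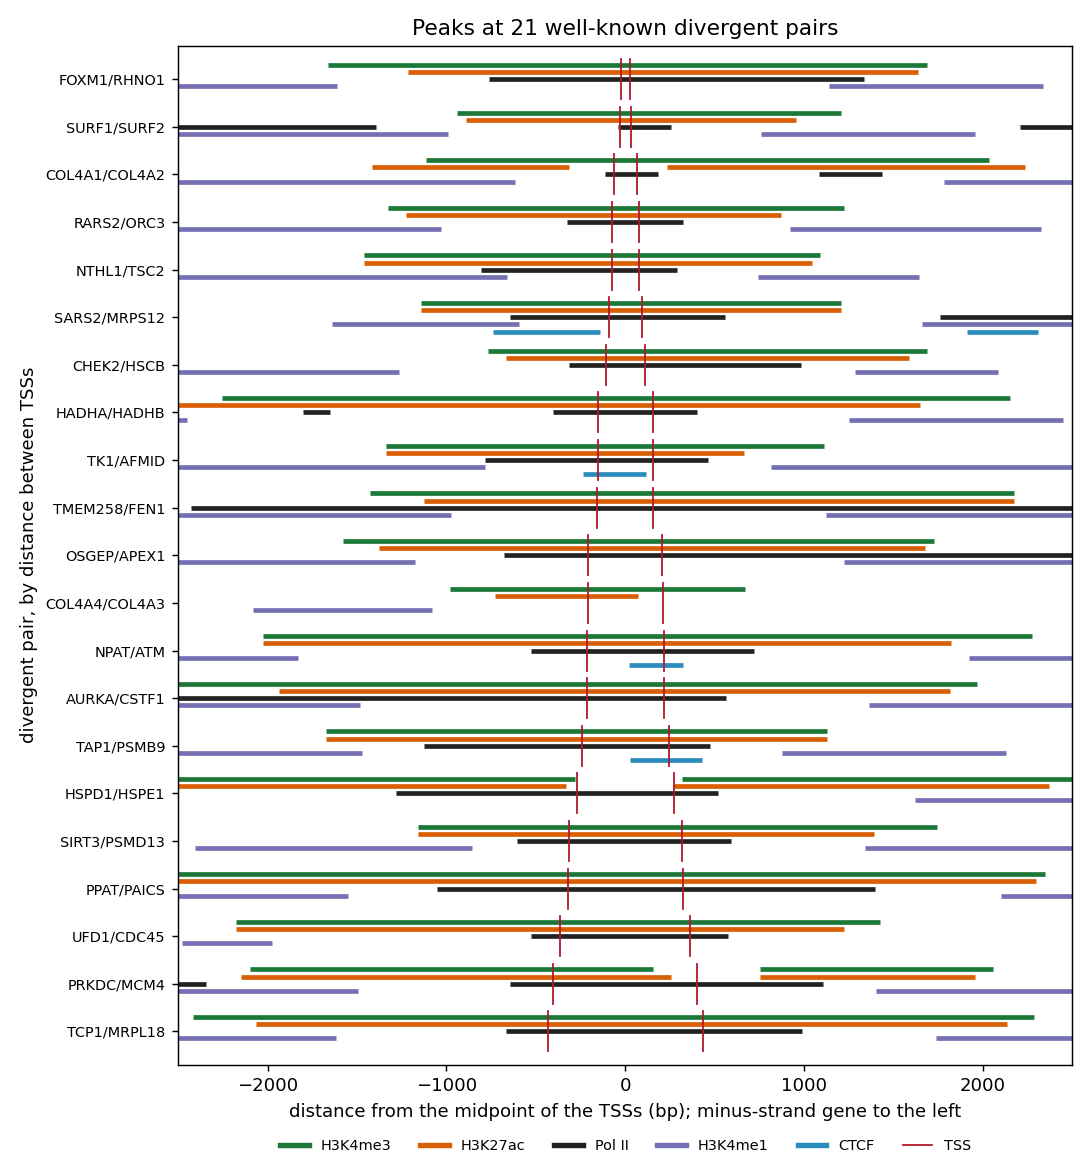
Peaks of 5 lists within 2500 bp of the midpoint of the TSSs at 21 of the 23 well-known divergent pairs that met the rule, ordered by distance between the TSSs; horizontal bars are peaks, vertical lines TSSs, and the minus-strand gene lies to the left. Pol II and the broader H3K4me3 and H3K27ac bars span the TSSs in most rows, H3K4me1 bars lie outside them, and COL4A4/COL4A3 has no Pol II bar.

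Among DNA repair and replication genes, NPAT/ATM had TSSs 429 bp apart. ATM is the kinase that signals double-strand breaks and NPAT a coactivator of histone genes. H3K4me3 filled all 3429 bp of this region, as did H3K27ac, Pol II covered 1250 bp and no H3K4me1 was found in it. TMEM258/FEN1, the promoter of the flap endonuclease of DNA replication, had the most Pol II of the 23, with all 3312 bp covered. At UFD1/CDC45, the promoter of a replicative helicase component, Pol II covered 1100 bp and no H3K4me1 was found in the region. NPAT/ATM and UFD1/CDC45 were the 2 textbook pairs without H3K4me1 in the region, but both had it just outside. At NPAT/ATM H3K4me1 peaks lay from -4228 to -1828 bp and from 1922 to 3372 bp of the midpoint. At UFD1/CDC45 a peak lay from -2478 to -1978 bp. PRKDC/MCM4, 805 bp apart, encode a kinase of DNA end joining and a subunit of the replicative helicase. H3K4me3 and H3K27ac each formed 2 peaks there, which covered the TSS of PRKDC and not that of MCM4, while 1 Pol II peak of 1750 bp lay over both TSSs and H3K4me1 covered 905 bp.

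Genes of mitosis and metabolism were laid out likewise. FOXM1 is a transcription factor of mitosis and RHNO1 acts in the DNA damage response. Their pair, FOXM1/RHNO1, 49 bp apart, held 3049 bp of H3K4me3 and 2100 bp of Pol II. AURKA/CSTF1, the promoter of the Aurora A kinase of mitosis, held 3430 bp of H3K4me3 and 2280 bp of Pol II. PPAT/PAICS, 645 bp apart, encode enzymes of purine synthesis. H3K4me3 and H3K27ac each filled all 3645 bp there and Pol II covered 2450 bp. At SARS2/MRPS12 H3K4me3 and H3K27ac each covered 2350 bp and Pol II 1200 bp, and a CTCF peak of 600 bp lay on the SARS2 side. HSPD1/HSPE1 encode the mitochondrial chaperonin and its cofactor. Here H3K4me3 formed 2 peaks on the outer sides, which covered 1487 bp and 1452 bp and neither TSS, while 1 Pol II peak of 1800 bp lay over both TSSs. Such a split, with peaks on both sides and none over either TSS, was found at 29 pairs for H3K4me3 and at 45 pairs for H3K27ac. The gap had a median of 650 bp over the 28 pairs with a single H3K4me3 gap.

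The type IV collagen pairs differed from each other. COL4A1/COL4A2 held 2680 bp of H3K4me3 over both TSSs, 2430 bp of H3K27ac in 2 peaks on the outer sides, and Pol II over both TSSs, 650 bp in all. COL4A4/COL4A3, which encode chains of the collagen of the kidney filter, held 1650 bp of H3K4me3, 800 bp of H3K27ac over COL4A4 only, and no Pol II. It was the only textbook pair without Pol II. The head-to-head genes COL4A5 and COL4A6 did not meet the rule with these canonical TSSs.

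Of the gene lists read, the histones had the most pairs with both genes in the list. Of 68 core and linker histone genes, 22 (32.4%) belonged to a divergent pair, against 9.44% of all protein-coding genes, and all 11 of these pairs joined 2 histone genes. H3K4me3, H3K27ac and Pol II were present at 8 of the 11, a lower share than the 96.4%, 95.9% and 95.3% of all 974 pairs. In those 8 pairs Pol II covered 2350 to 3236 bp, while the median over all pairs with Pol II was 1200 bp. At H2BC21/H2AC20, on chromosome 1, H3K4me3, H3K27ac and Pol II each filled all 3236 bp. At H2AC14/H2BC14 H3K4me3 covered 900 bp, H3K27ac 2096 bp and Pol II 2350 bp. H2AC25/H2BC26, H2AC1/H2BC1 and H3C7/H2BC9 held no peak of any list. Histone genes are near-identical copies of each other, so a lack of uniquely mapped reads cannot be told apart from a lack of signal there.

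Mitochondrial and DNA repair genes were also often found in pairs. Of 78 mitochondrial ribosomal protein genes, 26 (33.3%) were in 27 pairs, and all 27 held H3K4me3, H3K27ac, H3K4me1 and Pol II. Of 83 genes for subunits of the respiratory chain and ATP synthase, 24 (28.9%) were in 24 pairs, all with H3K4me3, H3K27ac and Pol II. DNA repair genes counted 28 of 90 (31.1%), and H3K4me3 was present at all 29 of their pairs and Pol II at 28. DNA replication genes counted 14 of 53 (26.4%), and all 14 pairs held H3K4me3 and Pol II. The share was lower for aminoacyl-tRNA synthetases (7 of 36, 19.4%), proteasome subunits (8 of 48, 16.7%) and cytosolic ribosomal proteins (13 of 86, 15.1%). All the pairs of these 3 lists held H3K4me3, H3K27ac and Pol II. Over all 974 pairs these shares were 96.4%, 95.9% and 95.3%. The counts of marked pairs in these lists of housekeeping genes thus lie near those of the pairs as a whole. C2H2 zinc finger genes stood at 40 of 550 (7.27%) and olfactory receptor genes at 2 of 404 (0.495%). Most single promoters of the housekeeping lists were marked too: H3K4me3 was present at all 52 single mitochondrial ribosomal promoters and at 68 of 73 cytosolic ones. These shares are descriptions and no list was tested.

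The distance between the TSSs changed the cover of both TSSs more than the presence of a peak. H3K4me3 was present at 94.6% of pairs at most 100 bp apart (90.4 to 97.1%) and at 94.7% of pairs 701 to 1000 bp apart (87.2 to 97.9%). One H3K4me3 peak over both TSSs was found at 98.3% of marked pairs in the closest bin (95.1 to 99.4%), 89.6% of those 301 to 500 bp apart (84.3 to 93.2%) and 77.8% of those 701 to 1000 bp apart (66.9 to 85.8%). For Pol II these shares were 93.7%, 91.6% and 70.8%. CTCF was present at 15.6% of the closest pairs (11.1 to 21.5%) and at 32.9% of those 701 to 1000 bp apart (23.4 to 44.1%), whose regions were also wider. Just inside the limit, 25 of 29 pairs 901 to 1000 bp apart held H3K4me3, and just outside it 17 of 18 head-to-head pairs 1001 to 1100 bp apart did.

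**Figure D4:**
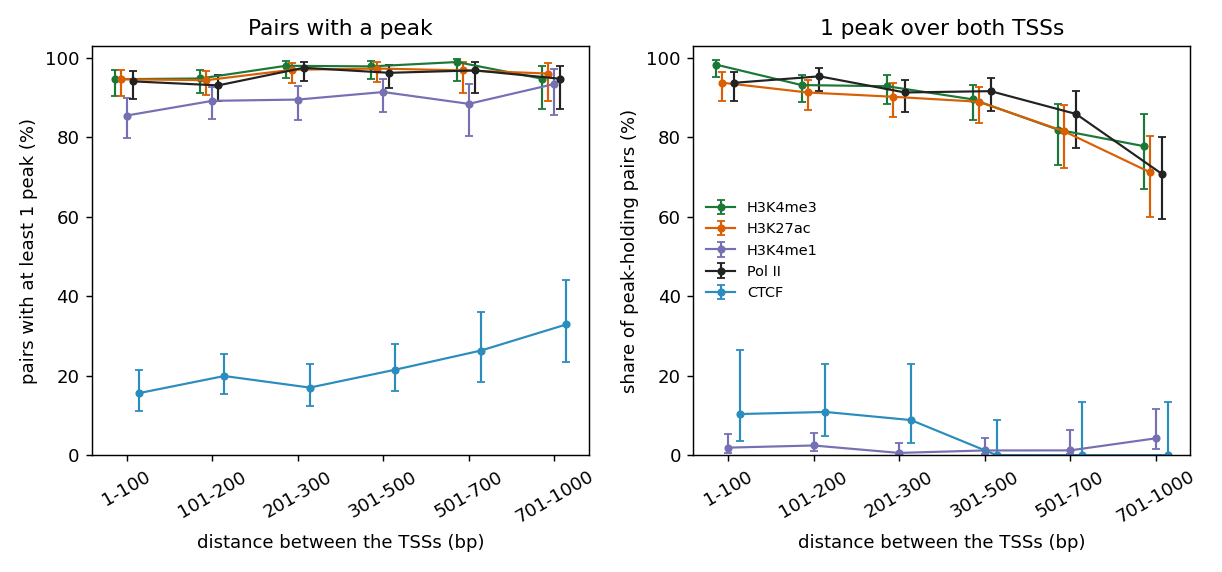
Share of divergent pairs with a peak (left, %) and share of peak-holding pairs in which 1 peak covered both TSSs (right, %), by distance between the TSSs in bp; points are shares and error bars 95% Wilson intervals. The left lines for H3K4me3, H3K27ac and Pol II stay above 93%, whereas on the right they fall to between 70.8 and 77.8% in the widest bin and H3K4me1 stays below 5%.

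A CTCF peak touched the stretch between the TSSs at 79 of the 199 pairs that held CTCF (39.7%, 33.2 to 46.6%), and CTCF covered the midpoint at 33. The nearest peak centre lay within 250 bp of the midpoint at 63 of the 199 pairs (31.7%, 25.6 to 38.4%), and within 250 bp of the TSS at 1107 single promoters with CTCF (35.5%, 33.8 to 37.2%). In pairs the nearest centre was a median of 409 bp from the midpoint, with quartiles of 201 and 808 bp. At single promoters with CTCF the nearest peak centre was a median of 420.5 bp from the TSS, and it lay upstream at 66.4% of them (64.7 to 68.0%). The closest pairs in which CTCF touched this stretch between the TSSs included STX10/IER2, 36 bp apart, with a peak of 300 bp. IER2 is an immediate early gene, and H3K4me3 filled all 3036 bp of this region. ZNF829/ZNF568, 41 bp apart, and TRADD/FBXL8, 48 bp apart, carried CTCF peaks of 300 bp and 450 bp. Of these, 267 bp lay on the ZNF568 side and 441 bp on the FBXL8 side. At NFS1/ROMO1, both genes of mitochondrial function, a CTCF peak of 200 bp covered both TSSs.

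p300/CBP peaks touched 2 of the 974 pairs, and of 13984 peaks in that list 2 (0.0143%) did so. The paper reports fewer p300/CBP peaks for these cells, so this list is not the same set. At H2BC4/H2AC6 the peak of 250 bp lay on the H2BC4 side, while H3K4me3 and H3K27ac each filled the 3246 bp of the region and Pol II covered 3199 bp. At POLR2L/TSPAN4 the peak of 250 bp lay on the TSPAN4 side, and Pol II filled all 3323 bp as part of a peak of 30550 bp. POLR2L is a subunit shared by the RNA polymerases. In neither pair did p300/CBP cover a TSS. By comparison 930 of 24693 H3K4me3 peaks (3.77%) and 894 of 26065 Pol II peaks (3.43%) touched a pair.

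The widest H3K4me3 peak over both TSSs of a pair measured 9750 bp, at HNRNPA2B1/CBX3, where Pol II formed a peak of 23000 bp. HNRNPA2B1 encodes an RNA-binding protein and CBX3 a heterochromatin protein. The pair CBX5/HNRNPA1, of the paralogous genes in the same arrangement, came next but one with 7650 bp of H3K4me3 and 16350 bp of Pol II. SKA2/PRR11 (7800 bp), SNX5/MGME1 (7600 bp), STX10/IER2 (7400 bp) and TLN1/CREB3 (7000 bp) were also among the widest. The median width of the widest H3K4me3 peak was 2800 bp at pairs and 2100 bp at single promoters. No H3K4me1 was found in the regions of HNRNPA2B1/CBX3, SKA2/PRR11, CBX5/HNRNPA1 or SNX5/MGME1.

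Few pairs lacked every mark. No peak of any list was found at 23 pairs (2.36%, 1.58 to 3.52%). The closest of them were DYDC1/DYDC2, MAGEA12/CSAG1, DCST2/DCST1, KCTD19/LRRC36, TRIM50/FKBP6, FOXL2/FOXL2NB, OR11A1/OR2H1, DMGDH/BHMT2, C11orf21/TSPAN32 and PLCZ1/CAPZA3. MAGEA12 and CSAG1 are cancer-testis genes, DCST1, PLCZ1 and CAPZA3 function in sperm, FKBP6 in meiosis, FOXL2 in the ovary, DMGDH in the liver, and OR11A1 and OR2H1 are olfactory receptors. The lists were made of uniquely mapped reads, so where a sequence is repeated a missing peak cannot be told apart from missing signal. Named after their values were seen, ABCG5/ABCG8, the sterol transporters of liver and gut, also held no peak. Neither did ZNF597/NAA60 (CpG ratio 0.777), SATL1/ZNF711 (0.877) or FAM83H/IQANK1 (0.830), named in the same way. Whether the genes of pairs with no peak are restricted to certain tissues was not tested. H3K4me1 without H3K4me3, H3K27ac or Pol II was found at 8 pairs, among them CRYAB/HSPB2, small heat shock proteins of lens and muscle, and DUOX2/DUOXA2, of thyroid hormone synthesis. These 2 were likewise chosen after their values were seen. Sequence differed from the marked pairs: the median CpG ratio was 0.635 at the 35 pairs without H3K4me3 and 0.793 at the 939 with it. Single promoters without H3K4me3 had a median of 0.315. The ratio varied widely among the pairs with no peak, with 0.0627 at OR11A1/OR2H1 and 0.767 at FOXL2/FOXL2NB.

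Sequence set the pairs apart from single promoters in CpG content and in some motifs. The median CpG ratio in the central 1 kb was 0.791 at pairs (quartiles 0.714 and 0.867) and 0.715 at single promoters (0.360 and 0.835). It was 0.787 at single promoters with H3K27ac. The median GC content was 62.7% and 61.2%, but the difference of 1.5 points turned to -0.60 in a 500-base window and to -1.72 within strata of CpG ratio. Motifs were counted on both strands in the 300 bases centred on the midpoint or on the TSS of a single promoter. The ETS core CCGGAAG was found at 30.9% of pairs and 11.9% of single promoters, a difference of 19.0 points (16.1 to 22.0), and of 15.6 points (12.6 to 18.5) within strata of CpG ratio. The box CCAAT was found at 41.2% and 32.4%, a difference of 8.82 points (5.69 to 12.01), and of 10.4 (7.20 to 13.6) within the strata. The cAMP response element half-site TGACGT was found at 15.5% and 8.05%, with differences of 7.45 and 5.95 points, and its palindrome TGACGTCA, which contains it, at 4.41% and 2.24%. The NRF1 core GCATGCGC was found at 7.49% and 3.47%, and the E-box at 10.9% and 7.39%. All of these stayed above 0 within the strata.

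Other motifs did not keep their direction or their call. The GC box was found at 72.7% of pairs and 60.6% of single promoters, a difference of 12.1 points, but within the strata the difference was -4.42 points (-7.25 to -1.58). TATAAA was found at 4.41% and 8.54%, a difference of -4.12 points, but within the strata the difference was 0.226 points (-1.10 to 1.55). The YY1 core ATGGCGG, at 12.3% and 9.29%, differed by 0.105 points within the strata (-2.03 to 2.24). For AP-1 the letters TGANTCA were searched, in which N is any base. This is wider than the AP-1 consensus in the paper, TGAG/CTCA, so other runs of letters were counted too. TGANTCA was found at 2.16% and 4.84%, and differed by -0.510 points within the strata (-1.46 to 0.442). A match is a run of letters and not a binding site. The window of a pair is centred between its TSSs. At the 617 pairs with TSSs at most 300 bp apart it reached to or past both TSSs, and at the others it lay between them. The window of a single promoter extends equally to both sides of its TSS, so the classes were not read over the same positions.

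**Figure D5:**
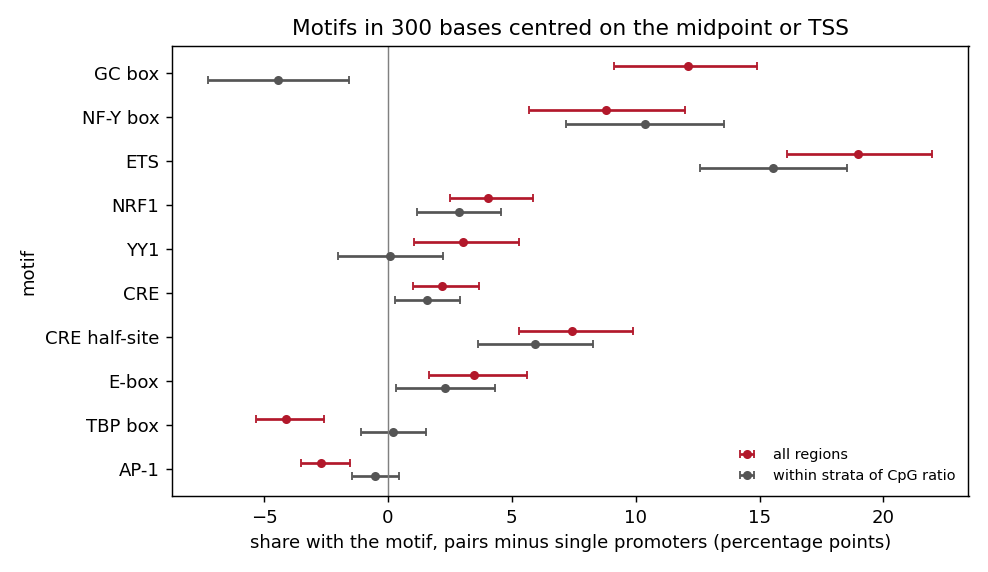
Difference in the share of regions with a motif, pairs minus single promoters, in percentage points, for 10 motifs in 300 bases; red points are all regions, grey points the difference within strata of CpG ratio, and error bars are 95% intervals. The ETS, NF-Y box (CCAAT), NRF1, CRE, CRE half-site and E-box points lie right of 0 in both colours, whereas the GC box and the TBP box (TATAAA) cross to the other side.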

How the data were processed

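MDA-MB-231 ChIP-seq reads were aligned to hg19 by the authors, with BWA-backtrack per the methods (Bowtie2 per the submitters' processing notes), counted from unique reads in 50-bp bins with PASHA, merged over replicates and thresholded in IGB. The deposited lists give a start and an end per peak and no count, height or score, so depth is unknown, a stricter threshold could not be set and replicates could not be compared. The labels of the H3K4me3, H3K27ac, H3K4me1 and p300/CBP lists name a background subtraction, and those of Pol II and CTCF do not. The lists may therefore differ in this step. The 2 Input libraries were not analysed here. No column lacked a sample or group (0 columns). TSSs came from GENCODE release 44 mapped to GRCh37, and 13 mitochondrial genes were left out. A peak counted where it shared 1 bp with a region. Shares have 95% Wilson intervals, differences 95% Newcombe intervals, called where they exclude 0, and strata Mantel-Haenszel differences. No p-value was computed. Differences of medians combine order-statistic intervals. Composition was read in 1 kb. Python 3.11.15, NumPy 2.4.6, SciPy 1.17.1 and matplotlib 3.10.9 were used. Simulated regions were used to check the overlap and pair-finding steps, and 0 of 6000 and 0 of 40 comparisons came out wrong. The pairs, gene lists, motifs and tests were chosen with earlier results of these data known, and the comparisons with lncRNA and tandem promoters, the CpG classes and the H3K4me1 layout alternatives after the data had been seen. Named pairs were textbook pairs, those with p300/CBP, the 8 widest H3K4me3 peaks over both TSSs, and up to 10 each with no peak, uneven cover or CTCF touching the stretch between the TSSs. Some pairs that met this rule are not reported here.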

Additional observations from a re-analysis of the deposited data

How the results depend on the processing

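No paired analysis was possible because replicates were merged before peaks were called, and leaving out a replicate was not possible for the same reason. The differences in H3K4me3, H3K27ac, H3K4me1 and Pol II shares stayed above 0 under every alternative run (11 each, 10 for H3K27ac), from 2.55 points (H3K4me3 among regions with H3K27ac) to 45.3 points. The CTCF difference lost its call with only wide peaks (0.640 points), with TSSs at most 500 bp apart (1.03) and against tandem promoters (0.527), and turned to -0.254 with 500 bp shared, -0.811 within strata of CpG ratio and GC, -4.20 among regions with H3K27ac and -0.802 against single promoters with a divergent lncRNA TSS. The p300/CBP difference excluded 0 without lncRNA promoters (-0.569), within strata (-0.364), among regions with H3K27ac (-0.909) and against tandem promoters (-0.748). It rests on 2 pairs. With only wide peaks, 1 peak lay over both TSSs at 92.9% (H3K4me3), 93.3% (H3K27ac) and 94.6% (Pol II) of marked pairs, and with TSSs at most 500 bp apart at 93.4%, 91.0% and 93.1%. A reach of 200 bp past both TSSs left 77.8% for Pol II and 0% for CTCF. In a 3 kb window on the midpoint, the difference in regions filled by H3K4me3 rose from 5.64 to 16.1 points, that by H3K27ac from 0.449, with 0 in its interval, to 7.30, and that by Pol II became -1.16 with 0 in its interval. Median GC at pairs differed by -0.60 points in 500 bases and by -1.72 within strata of CpG ratio. The GC box turned to -4.42 points and TATAAA to 0.226 within those strata. The causes were not tested. Without heights per peak, weak and strong promoters above the threshold cannot be told apart.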

Other observations

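Head-to-head protein-coding TSSs 1001 to 5000 bp apart, with neither gene in a closer pair, numbered 401. Their regions, cut by the same rule, were wider than those of the pairs above, so shares are given without a comparison. H3K4me3 was present at 340 of them (84.8%), H3K27ac at 339 (84.5%), Pol II at 333 (83.0%), H3K4me1 at 343 (85.5%) and CTCF at 143 (35.7%). A single H3K4me3 peak over both TSSs was found at 62.7% of marked head-to-head pairs 1001 to 2000 bp apart and at 6.88% of those 2001 to 5000 bp apart, when pairs with a gene in a closer pair are counted too. H3K4me1 was present between the TSSs of 237 of the 326 pairs 2001 to 5000 bp apart, and of 42 of the 114 pairs 1001 to 2000 bp apart.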
